A study of Homo sapiens with 8 samples.

Results

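The genes described here are 10 direct targets of the tumour suppressor p53: CDKN1A, GADD45A, PLK2, PLK3, MDM2, PPM1D, RRM2B, SESN1, ZMAT3 and TP53INP1. They were taken by name, through their NCBI Gene IDs, as 10 of the 18555 genes in a table of RNA-seq read counts, and 9 of them had enough reads to be tested. The table holds 3 libraries from cells that received an siRNA against XBP1 (siXBP1) and 3 from cells that received a non-targeting control siRNA (siNC). Both groups come from cells labelled HepG2, a line from a human liver tumour, and both were given 30 nM thapsigargin for 3 hours, 2 days after transfection. Thapsigargin inhibits SERCA, which pumps calcium into the endoplasmic reticulum, and so causes unfolded proteins to accumulate there. The comparison is therefore between XBP1 knockdown and control under stress of that organelle, with no unstressed arm. The series asks how XBP1s, the transcription factor made from the spliced XBP1 mRNA during this stress, acts in liver cancer cells.

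p53 is a transcription factor that is held low by the ubiquitin ligase MDM2 and is stabilised by DNA damage and other stresses. It binds sites made of a pair of half-sites and turns on genes that stop the cell cycle, repair DNA, adjust metabolism and, at higher activity, start apoptosis. Some of its targets act back on it: MDM2 degrades p53, and the phosphatase PPM1D removes activating phosphates from p53 and its kinases. Several targets, among them GADD45A, PLK2, PLK3 and CDKN1A, are also induced by other stress and growth signals without p53. Gene counts show neither p53 protein nor its activity.

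All 6 libraries were alike in size, from 38209972 to 38890070 counts. XBP1, the targeted gene, had 290.0, 299 and 276 CPM, a library's counts scaled to a common total, in the siXBP1 libraries, against 552, 502 and 500 CPM in the siNC libraries. Its log2 fold change was -0.84 (SE 0.08, adjusted p = 0.0331 by edgeR's quasi-likelihood test with Benjamini-Hochberg adjustment), and XBP1 was the single gene of 14337 tested that passed, while DESeq2 called 15. The edgeR call of XBP1 was lost with upper-quartile factors (adjusted p = 0.0546) and when siXBP1 replicate 1, siXBP1 replicate 2, siNC replicate 2 or siNC replicate 3 was left out (adjusted p = 0.175 to 0.475). The label HepG2 is not borne out by hepatocyte transcripts. Of 16 hepatocyte markers 9 were among the 18555 genes counted, and 1 of these averaged at least 1 CPM. ALB, APOA1, APOB and TTR were among those not counted, so their levels cannot be read here. The summed level of the 9 was 2.28 to 3.82 CPM in siXBP1 and 2.26 to 2.73 CPM in siNC. AFP, the fetal albumin-like protein that HepG2 is known for, reached at most 0.155 CPM. Of 13 markers of other epithelial lines and mesenchymal cells 11 were among the genes counted, and 8 of these averaged at least 1 CPM. Their summed level was 5523 to 6784 CPM in siXBP1 and 5637 to 7133 CPM in siNC, with KRT17 as the most abundant. Leukocyte markers summed to at most 0.951 CPM in any library. The libraries differed most along a first principal component, with 59.3% of the variance of 11528 genes, which placed siXBP1 replicate 3 (score 25.1) and siNC replicate 1 (score -25.0) at opposite ends and the other libraries between -9.40 and 11.3. Both are called end libraries in what follows. Because these are bulk cultures, a shift in the share of cells that express a gene and a shift in its RNA per cell cannot be told apart.

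Matches to the p53 site can be read in the promoters of MDM2 and SESN1, and they are shown because p53 acts on its direct targets through such sites. Binding of p53 to them was not measured in the data used here. RefSeq windows (GRCh38.p14), searched over the 250 bases before each annotated start site, were at hand for 7 of the 10 genes, in 13 windows. The search was for a full p53 site, a pair of half-sites of 10 letters each with no spacer, with at most 3 of the 20 letters departing from the consensus. It reads the same on both strands. The capitals mark the matches, and each stretch runs 5′ to 3′ on the gene's strand:
MDM2, chr12:68808903-68809000, plus strand: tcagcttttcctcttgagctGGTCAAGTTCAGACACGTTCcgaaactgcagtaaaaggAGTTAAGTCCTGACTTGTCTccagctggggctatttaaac
SESN1, chr6:109008998-109009057, minus strand: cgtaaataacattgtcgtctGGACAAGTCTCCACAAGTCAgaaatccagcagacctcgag

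The MDM2 stretch lies before an internal start site, the promoter known to respond to p53, and holds 2 matches, with 2 and 3 departures. The SESN1 stretch lies before its most downstream start site and holds 1 match with 3 departures. Such a match was present in 4.36% of the 35116 promoter windows in the RefSeq table, and one with at most 2 departures in 0.561%. A second MDM2 window overlaps the first and holds the same matches. The other windows of these genes held none, which says nothing about sites farther away, such as the distal ones known for CDKN1A.

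Sequences of the type bound by XBP1s and by other stress factors of the bZIP class were searched in the same windows, on both strands. The letters TGACGTG were found before PLK2, and TGACGTCA, the cyclic AMP response element, before PPM1D. These stretches are shown with the match in capitals:
PLK2, chr5:58460137-58460183, minus strand: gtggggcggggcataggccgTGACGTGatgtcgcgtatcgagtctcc
PPM1D, chr17:60600112-60600159, plus strand: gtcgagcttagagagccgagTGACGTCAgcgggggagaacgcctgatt

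TGACGTG occurs in 1.68% and TGACGTCA in 1.65% of the 35116 windows, and neither contains the other. The shorter letters CCACG, part of an endoplasmic reticulum stress element, were present before PLK2, before 1 of 3 SESN1 start sites and before 1 of 2 ZMAT3 start sites, but they occur in 33.5% of all windows. The estimates of PLK2 and PPM1D lay within the range of the other members, and any effect of these sequences was not tested. Binding of XBP1s was not measured in the data used here. The series also holds 2 ChIP-seq samples of XBP1s, which were not analysed.

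None of the 9 tested genes changed by the test, and all 9 had higher estimates in siXBP1, between 0.12 and 0.21 on the log2 scale. Their median was 0.17, against 0.01 over all genes tested, of which 52.8% had positive estimates. Called genes made up 0.00697% of all those tested, and 3.61% had an unadjusted p under 0.05. Among the 9 members, 0 had an unadjusted p under 0.05 in this edgeR fit, DESeq2 called 0 of them, and the edgeR adjusted p was 0.9998 for each. The libraries of the 2 groups did not overlap for 1 member, SESN1, with siXBP1 higher, while 5.01% of all genes tested were free of overlap in that direction. Several of the members followed the same end libraries, so their shared direction is not 9 separate observations.

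Among genes of cell cycle arrest, CDKN1A encodes p21, the inhibitor of cyclin-dependent kinases through which p53 stops the cell cycle, and it is the classical p53 target (gene ID 1026, chromosome 6, 36676463 to 36687332). It had 308, 290.0 and 242 CPM in siXBP1, against 293, 224 and 251 CPM in siNC. The groups overlapped, since siXBP1 replicate 3 was below 2 of the siNC libraries. The means were 280.0 ± 34.1 CPM in siXBP1 and 256 ± 34.7 CPM in siNC (SD, n = 3 each), and the log2 fold change was 0.13 (SE 0.12, 95% interval -0.15 to 0.41).

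GADD45A, a small protein that binds cell cycle and stress kinases and is induced by DNA damage, had 150.2, 166 and 136 CPM in siXBP1, against 152, 121 and 131 CPM in siNC. siNC replicate 1 was above 2 of the 3 siXBP1 libraries, so the groups overlapped. The log2 fold change was 0.17 (SE 0.12, interval -0.10 to 0.43).

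PLK2 and PLK3 are polo-like kinases that respond to stress and growth signals, unlike PLK1, which drives mitosis. PLK2 had 104, 118 and 113 CPM in siXBP1, against 105, 93.9 and 97.6 CPM in siNC. A single siNC library, replicate 1, reached above the lowest siXBP1 library, by about 1 CPM. Its log2 fold change of 0.18 had the smallest SE among the members (0.10, interval -0.04 to 0.40). PLK3 had 30.3, 28.3 and 23.2 CPM in siXBP1, against 23.5, 22.8 and 24.9 CPM in siNC. Here 2 siXBP1 libraries were above every siNC library and replicate 3 lay within the siNC range, and the log2 fold change was 0.20 (SE 0.13, interval -0.09 to 0.49).

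The feedback genes were ordered differently. MDM2, the ubiquitin ligase of p53 (gene ID 4193, chromosome 12, 68808172 to 68850686), had 102, 115 and 148 CPM in siXBP1, against 92.1, 122 and 122 CPM in siNC. siXBP1 replicate 3 was the highest and siNC replicate 1 the lowest of the 6, and between them 2 siNC libraries were above 2 siXBP1 libraries. The means were 121 ± 23.7 CPM in siXBP1 and 112 ± 17.4 CPM in siNC (SD, n = 3 each), with a log2 fold change of 0.12 (SE 0.16, interval -0.24 to 0.47). PPM1D, the phosphatase also called WIP1, had 33.2, 40.02 and 44.3 CPM in siXBP1, against 28.4, 39.2 and 39.6 CPM in siNC. It shared the 2 extreme libraries with MDM2, and its log2 fold change was 0.13 (SE 0.16, interval -0.23 to 0.50).

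Among genes of repair and metabolism, RRM2B encodes the p53-induced subunit of ribonucleotide reductase, which supplies building blocks for DNA repair. It had 20.04, 21.6 and 32.9 CPM in siXBP1, against 18.1, 23.7 and 25.7 CPM in siNC. Its mean in siXBP1 rested on replicate 3, with the other 2 siXBP1 libraries below 2 of the siNC libraries (log2 fold change 0.15, SE 0.20, interval -0.31 to 0.60). ZMAT3, a zinc finger protein that binds RNA and acts in p53's control of splicing, had 26.3, 24.0 and 38.1 CPM in siXBP1, against 21.7, 27.0 and 27.9 CPM in siNC. It too was highest in siXBP1 replicate 3 and lowest in siNC replicate 1, and it had the largest estimate of the members with one of the widest errors (0.21, SE 0.18, interval -0.20 to 0.61).

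SESN1, a sestrin that restrains mTORC1 signalling and oxidative stress, stood apart by its small spread. It had 13.8, 13.1 and 13.9 CPM in siXBP1, against 12.7, 11.9 and 11.6 CPM in siNC. All 3 siXBP1 libraries were above all 3 siNC libraries, with means of 13.6 ± 0.421 and 12.1 ± 0.580 CPM (SD, n = 3 each), a difference of 12.4% of the siNC mean. The log2 fold change of 0.17 (SE 0.12, interval -0.10 to 0.44) had an unadjusted edgeR p of 0.192 and did not pass. Its counts, 447 to 530 per library, are the fewest of the tested members.

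TP53INP1, which promotes autophagy and p53 phosphorylation, was near the detection floor of 3 counts and was not tested. It had 4, 4 and 2 counts in siXBP1, against 18, 2 and 2 counts in siNC, so that a single siNC library held most of its reads, and no fold is given. Its span lies wholly within that of NDUFAF6 in RefSeq, a gene with 546 to 751 counts per library. How reads in overlapping genes were assigned, and whether both mates of a read pair were counted, is not given in the sources used here; if both were, these counts stand for fewer fragments. The span of SESN1 shares 68732 bases with that of ARMC2 (65 to 97 counts per library). MDM2 shares 8490 bases with CPM, the carboxypeptidase gene (244 to 308 counts), and PLK3 shares 98 bases with DYNLT4 (20 to 39 counts).

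**Figure D1:**
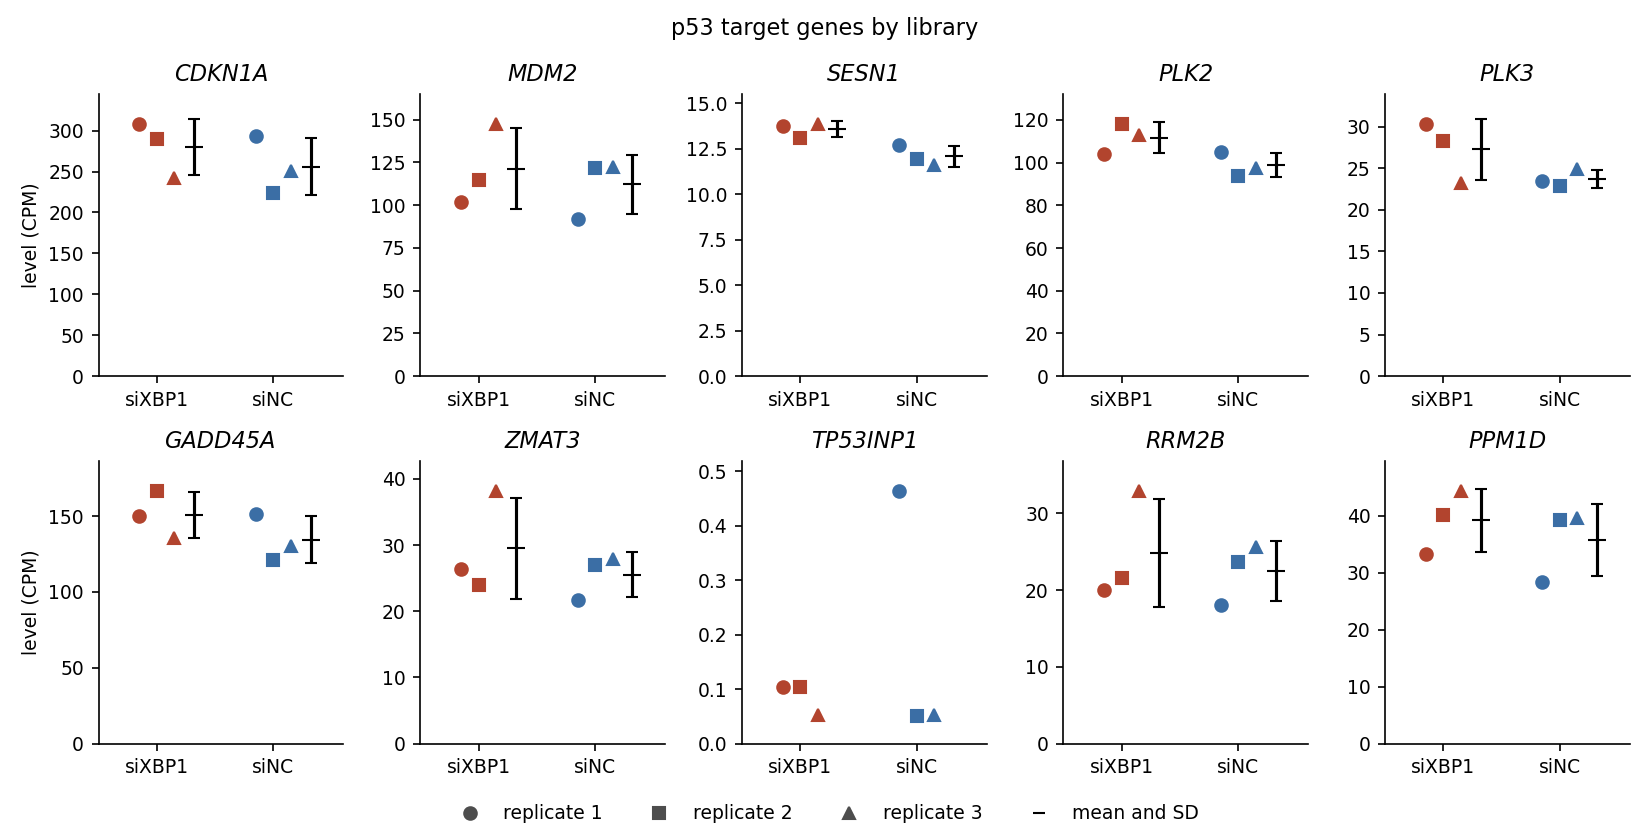
Level in CPM (vertical axes, each from 0) of the 10 p53 target genes in the siXBP1 and siNC libraries; symbols mark the replicates, and black bars the mean and SD of 3 libraries, left out for TP53INP1 at 2 to 18 counts. SESN1 alone has all siXBP1 libraries above all siNC libraries, while MDM2, PPM1D, RRM2B and ZMAT3 share siXBP1 replicate 3 as the highest and siNC replicate 1 as the lowest.

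The spread within groups divided the members in a way that the group means hide. MDM2, PPM1D, RRM2B and ZMAT3, or 4 of the 9, were highest in siXBP1 replicate 3 and lowest in siNC replicate 1, a pattern held by 17.3% of all genes tested. The opposite pattern was held by 0 of the 9 and by 14.3% of all genes. Between these 2 libraries, siXBP1 replicate 3 minus siNC replicate 1, the log2 level differed by 0.86 for RRM2B, 0.81 for ZMAT3, 0.68 for MDM2 and 0.64 for PPM1D. The difference was 0.12 for SESN1, 0.10 for PLK2 and -0.02 for PLK3, and it had the other sign for GADD45A (-0.16) and CDKN1A (-0.28). The end libraries thus differ by more, for the first 4 genes, than any member's estimate between the groups.

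Gene span ran alongside this division. The 4 genes above span 34461 to 66088 bases in RefSeq, and GADD45A, PLK3, PLK2 and CDKN1A span 3134, 5614, 6105 and 10870 bases. SESN1, with 110538 bases, was the longest and yet nearly level between the end libraries. Over all genes tested, the median difference between the same 2 libraries was -0.32 on the log2 scale for 3433 genes under 10 kb, -0.13 for 4016 genes of 10 to 30 kb, 0.13 for 4387 genes of 30 to 100 kb and 0.32 for 2492 longer genes. The difference was above 0 for 26.2% of the shortest class and 77.8% of the longest. What sets the gradient, and its part in the values of the p53 targets, was not tested.

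**Figure D2:**
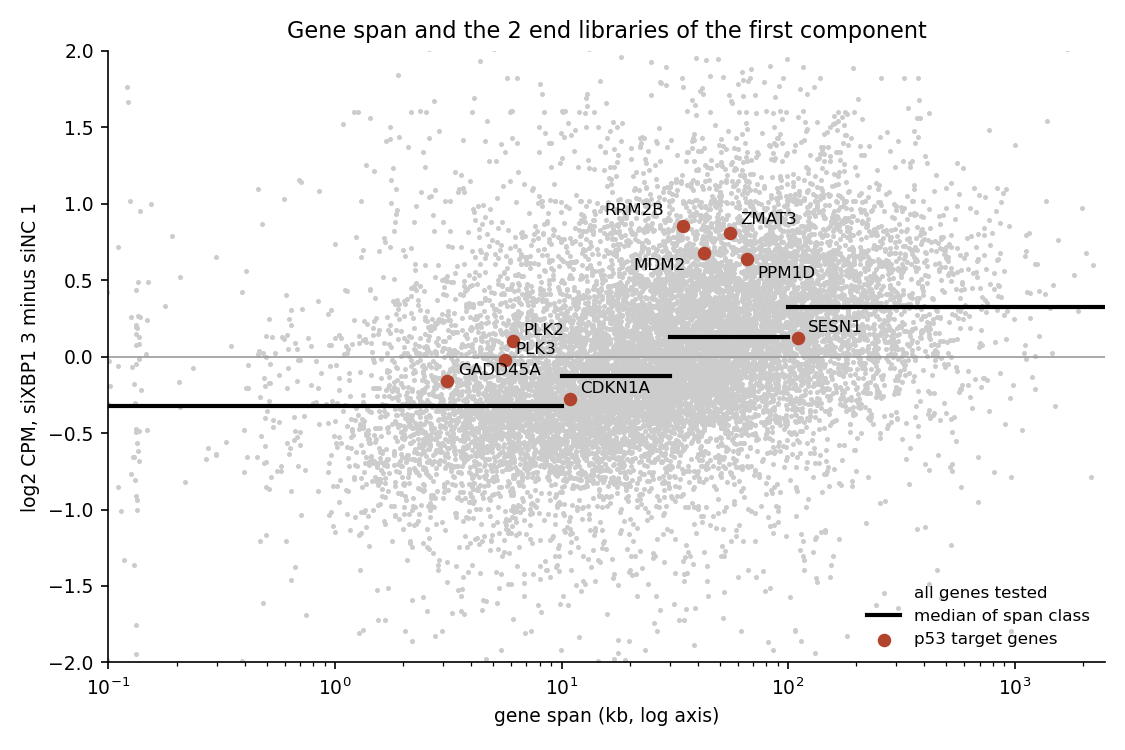
Difference in log2 CPM between the end libraries, siXBP1 replicate 3 minus siNC replicate 1 (vertical axis), against gene span in kb (log axis); grey points are the genes tested, black lines the medians of 4 span classes (-0.32, -0.13, 0.13 and 0.32), and red points the 9 p53 targets. CDKN1A and SESN1 lie below the line of their class, and the other red points lie above it. Of 14328 genes, 214 fall outside the axes.

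With both end libraries left out, an alternative chosen with earlier results of these data known, 2 siXBP1 and 2 siNC libraries remained and 2 members passed, both higher in siXBP1. CDKN1A rose by 0.34 (SE 0.09, interval 0.16 to 0.51, edgeR adjusted p = 0.0147) and GADD45A by 0.34 (SE 0.09, interval 0.16 to 0.52, adjusted p = 0.0201). For both genes siNC replicate 1 was the highest siNC library and siXBP1 replicate 3 the lowest siXBP1 library. Leaving these 2 out therefore raises both estimates by construction. They were picked as the extremes of the component in these same data, so the errors and adjusted p of this fit may be too small. In that fit 4.87% of 14416 genes passed, 1.45% as higher and 3.42% as lower. PLK3 (0.30, SE 0.12, adjusted p = 0.146) and PLK2 (0.22, SE 0.09, adjusted p = 0.176) had higher estimates that did not pass over all genes. SESN1 was close to its value over all libraries (0.20, SE 0.15). The remaining 4 members had negative estimates: RRM2B -0.24 (SE 0.12), MDM2 -0.17 (SE 0.09), ZMAT3 -0.12 (SE 0.12) and PPM1D -0.10 (SE 0.11), with adjusted p between 0.303 and 0.707. These 4 were the genes highest in siXBP1 replicate 3 and lowest in siNC replicate 1. Leaving those libraries out lowers their estimates by construction but does not set their sign. This division of the members is therefore not independent of the earlier one.

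The sign of the estimates in these 4 libraries ran with span, in the members other than SESN1 and in all genes. Over all genes the direction was the reverse of that between the end libraries. The median log2 fold change over all genes was 0.10 under 10 kb, 0.05 at 10 to 30 kb, -0.03 at 30 to 100 kb and -0.10 above that. With all libraries kept, the medians of these classes were -0.03, -0.01, 0.03 and 0.04. This fit shares no library with the difference between the end libraries. Its siXBP1 libraries had component scores of -9.40 and -5.12, and its siNC libraries 11.3 and 3.16. Group and component thus ran together in it, in the order opposite to the end libraries, and cannot be told apart. In the class under 10 kb 2.88% of genes passed as higher, and in the class of 10 to 30 kb, which holds CDKN1A, 1.69%. How far span and knockdown each contribute to the calls of CDKN1A and GADD45A was not tested. This fit cannot separate knockdown from the component.

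**Figure D3:**
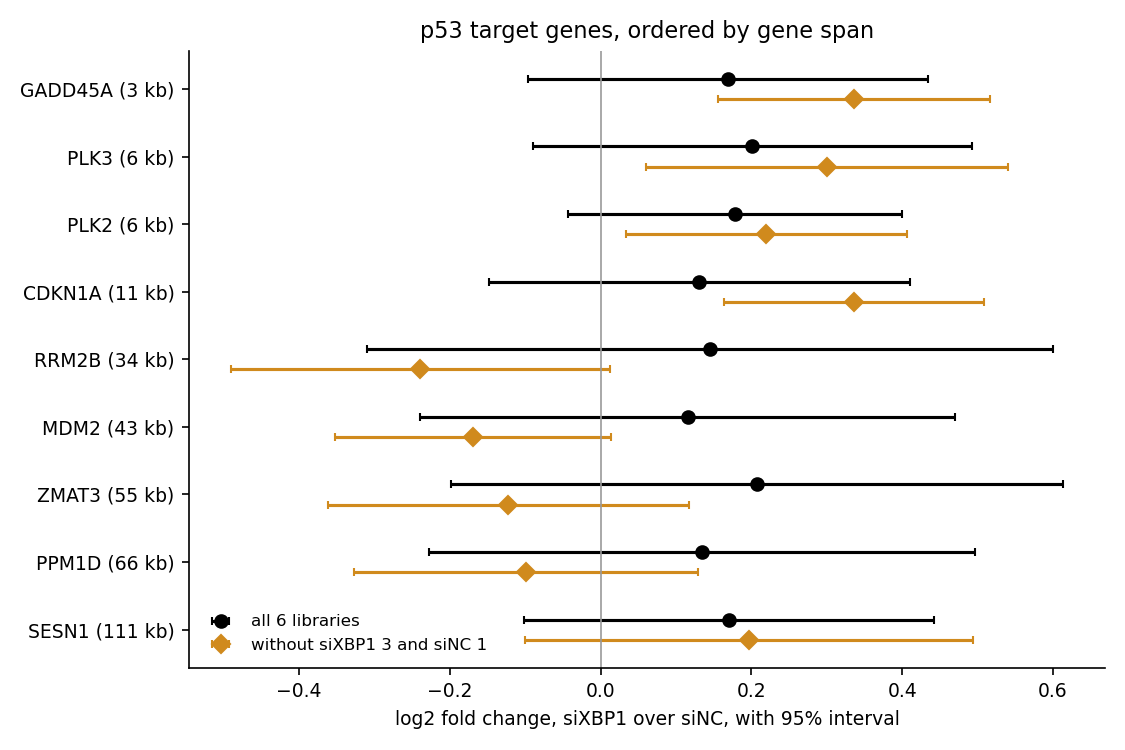
Log2 fold change of siXBP1 over siNC (horizontal axis) with its 95% interval for the 9 tested p53 targets, from the shortest gene at the top to the longest at the bottom; black circles use all 6 libraries and orange diamonds leave out siXBP1 replicate 3 and siNC replicate 1. All black intervals include 0, and the orange estimates are above 0 for the 4 shortest genes and SESN1 and below 0 for RRM2B, MDM2, ZMAT3 and PPM1D. For the genes below 0, the libraries left out were the highest (siXBP1 replicate 3) and the lowest (siNC replicate 1).

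With each library's principal component score added to the edgeR model, and all libraries kept, 0 members passed, where 1.2% of all genes passed and 0.711% passed as higher. All 9 estimates were positive there. CDKN1A came nearest (0.20, SE 0.06, adjusted p = 0.083), followed by GADD45A (0.22, SE 0.06, adjusted p = 0.0948), PLK2 (0.19, SE 0.07, adjusted p = 0.226) and PLK3 (0.23, SE 0.09, adjusted p = 0.314). SESN1 had 0.18 (SE 0.11). MDM2 (0.02), RRM2B (0.01), PPM1D (0.06) and ZMAT3 (0.09) had estimates nearer 0 than in the fit without the score. The score was computed from the same libraries and taken as known, so these errors may be too small.

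In the list of p53 and its regulators, 13 of 19 estimates were higher and 6 lower, 0 passed, and the median was 0.03. CDKN2A, whose locus encodes the MDM2 inhibitor ARF as well as p16, averaged 208 ± 37.2 CPM in siXBP1 and 219 ± 35.0 CPM in siNC (SD, n = 3 each; log2 fold change -0.08, SE 0.16). USP10, a deubiquitinase of p53, had 0.04 (SE 0.09). Groups were free of overlap for 3 of these genes, 2 with siXBP1 higher and 1 lower, where 5.01% and 3.74% of all genes were so. Among them were PPP1R13B, which encodes the p53 cofactor ASPP1 (0.23, SE 0.12), and COP1, a ubiquitin ligase of p53 (-0.17, SE 0.10).

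Of 67 further p53 targets in 4 lists, 63 were tested, with 36 higher and 27 lower estimates, a median of 0.02 and 0 called. Arrest and signalling genes had 11 of 17 estimates higher (median 0.03), apoptosis genes 12 of 19 (median 0.07), DNA repair genes 4 of 10 (median -0.02), and genes of metabolism and autophagy 9 of 17 (median 0.00). Groups were free of overlap for 8 of the 63, all with siXBP1 higher, against 5.01% of all genes in that direction and 3.74% in the other. The members' estimates were all above 0, and those of the wider lists lay on both sides of it; whether the lists differ was not tested.

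BTG2, an antiproliferative gene induced by p53 and by growth signals, had the largest positive estimate among these lists. It had 22.0, 20.3 and 16.4 CPM in siXBP1, against 13.0, 13.2 and 14.2 CPM in siNC. Every siXBP1 library was above every siNC library, and the log2 fold change was 0.54 (SE 0.14, unadjusted p = 0.0037 and adjusted p = 0.9998 in edgeR). PHLDA1, a regulator of growth factor signalling and apoptosis, had 195, 187 and 218 CPM in siXBP1, against 149.9, 138 and 166 CPM in siNC. Here too the groups were apart (0.41, SE 0.10, adjusted p = 0.9998). FAS, the death receptor, had 23.4, 24.0 and 29.5 CPM in siXBP1, against 18.2, 20.7 and 21.4 CPM in siNC (0.35, SE 0.13), again with no overlap.

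EPHA2, a receptor tyrosine kinase, averaged 557 ± 41.2 CPM in siXBP1 and 478 ± 44.6 CPM in siNC (SD, n = 3 each), with ranges that overlapped (0.22, SE 0.10). BTG2, PHLDA1 and EPHA2 passed as higher with the first component as a covariate (0.57, 0.39 and 0.27; edgeR adjusted p = 0.00658, 0.00309 and 0.00972), where 0.711% of all genes did, and again without both end libraries (0.63, 0.34 and 0.35; adjusted p = 0.00307, 0.02 and 0.00858). The fit without both end libraries also called GADD45B (0.40), a relative of GADD45A, BBC3 (0.60), which encodes the apoptosis inducer PUMA, and GPX1 (0.33), a glutathione peroxidase, as higher. It called IKBIP (-0.39) and ASCC3 (-0.34) as lower. By list, calls were 3 higher and 1 lower of 17 arrest and signalling genes, 2 higher and 1 lower of 19 apoptosis genes, and 1 higher of 17 genes of metabolism and autophagy, beside 1.45% higher and 3.42% lower over all genes. With all libraries GADD45B had 0.11, BBC3 0.09, GPX1 0.02, IKBIP -0.09 and ASCC3 -0.06, each with an edgeR adjusted p of 0.9998. With the covariate their edgeR adjusted p lay between 0.202 and 0.504. Leaving out both end libraries raises GADD45B, BBC3 and GPX1, and lowers IKBIP and ASCC3, by construction. FAS passed neither with the covariate (edgeR adjusted p = 0.139) nor without both end libraries. TNFRSF10B, a receptor for the death ligand TRAIL (0.15, SE 0.08), DRAM1, which promotes autophagy (0.18, SE 0.08), and FBXO22, a subunit of a ubiquitin ligase (0.15, SE 0.10), were free of overlap with siXBP1 higher. Estimates near 0 came from the cyclin gene CCND1 (0.02) and the replication clamp gene PCNA (-0.01). ULK1, a kinase that starts autophagy, had -0.07 (SE 0.14), and PERP, a membrane protein of apoptosis and adhesion, 0.29 (SE 0.19).

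Genes that p53 represses through p21 and the DREAM complex, which silences cell cycle promoters, were tested as the other side of the pathway. Of 25 such genes 15 had higher and 10 lower estimates, 0 passed, and estimates ran from -0.08 to 0.18 with a median of 0.01. TOP2A averaged 416 ± 52.9 CPM in siXBP1 and 408 ± 77.1 CPM in siNC, and MKI67 385 ± 95.4 CPM in siXBP1 and 383 ± 63.7 CPM in siNC (SD, n = 3 each). RRM2, the replicative counterpart of RRM2B, averaged 286 ± 3.76 CPM in siXBP1 and 298 ± 5.46 CPM in siNC, with no overlap and a log2 fold change of -0.06 (SE 0.08). Without both end libraries 2 of these genes passed as lower, MKI67 (-0.33, adjusted p = 0.0168) and TTK (-0.38, adjusted p = 0.0182), where 3.42% of all genes did. The list then had 13 higher and 12 lower estimates and a median of 0.05, of the opposite sign to both calls. With all libraries TTK had 0.10 (SE 0.24) and MKI67 0.01 (SE 0.17), each with an edgeR adjusted p of 0.9998. For both, siNC replicate 1 was the lowest siNC library and siXBP1 replicate 3 the highest siXBP1 library. Leaving these libraries out therefore lowers both estimates by construction.

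**Figure D4:**
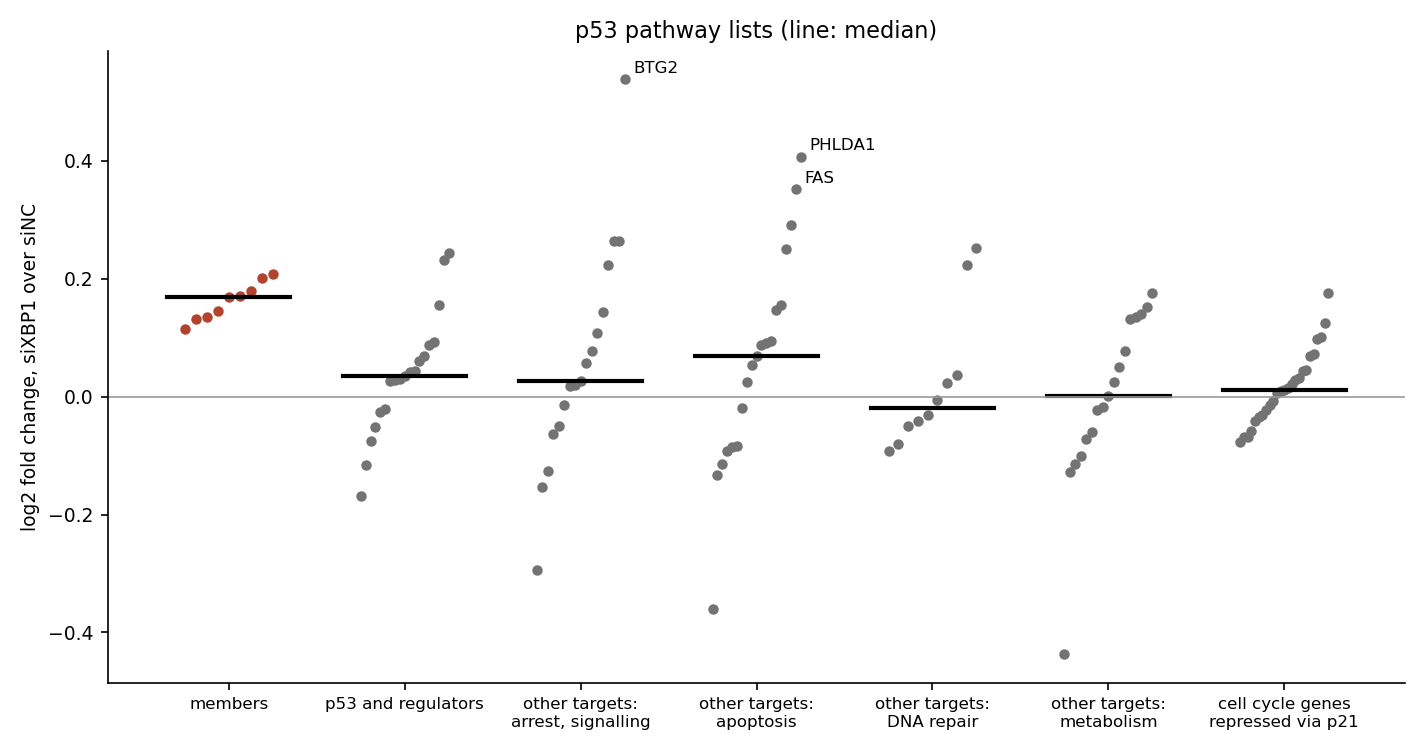
Log2 fold change of siXBP1 over siNC (vertical axis) for each tested gene of the p53 lists; every point is a gene, and lines mark list medians. The 9 members lie between 0.12 and 0.21 with a median of 0.17, the other lists spread on both sides of 0 with medians from -0.02 to 0.07, and BTG2, PHLDA1 and FAS have the largest positive estimates.

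The genes with the closest profiles were sought for CDKN1A and MDM2. Over the 6 libraries and 11527 candidate genes, CDKN1A was most like MED10 (Pearson r = 0.996 of log2 CPM), PKIG (0.994) and ZBTB42 (0.994). MDM2 was most like CPNE3 (0.999), GABPA (0.998) and FEM1C (0.998). These values describe 6 libraries that share the gradient above, and they carry no test.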

How the data were processed

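RNA-seq libraries were made from total RNA with a strand-specific kit, per the labels' protocols. The authors deposited whole-number read counts per NCBI Gene ID, not normalized, with 1 column for each of 6 libraries. STAR 2.5.2a, featureCounts 1.5.0 and hg38 appear in the submitters' processing notes. No annotation or strand setting is given in the sources used here. The 2 ChIP-seq samples were not analysed here. RefSeq (GRCh38.p14) named 18526 of 18555 IDs; the others held 0.00349% of counts.

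After filterByExpr and TMM factors, edgeR 4.0.16 (R 4.3.3) gave quasi-likelihood tests, two-sided, group as the only term, with 4 residual degrees of freedom. P-values were Benjamini-Hochberg adjusted over 14337 genes, threshold 0.05. SE is the log2 fold change over the square root of F, and intervals are 95%. DESeq2 1.42.0 and limma 3.58.1 (voom) were alternatives, and the procedure was tested on simulated data. The simulated counts had the same dispersion for every gene and no gradient between libraries. That test therefore does not show how small a change could be found in the real libraries. Among counts from 1 to 40, 75.8% to 80.5% were even, as counting both mates of read pairs would give. Whether that was done is not given in the sources used here; if so, every printed count stands for fewer fragments. A fit on counts divided by 2 was among the alternatives. The floor of 3 counts (0.0771 to 0.0785 CPM) covers counting error only.

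Members, lists, alternatives and naming rules were chosen with earlier results of these data known. The text names all members, XBP1, and per list the called genes or the 2 most abundant, plus up to 2 without overlap (mean of at least 5 CPM); some genes under this rule are not reported here. TTK, GADD45B, BBC3, GPX1, IKBIP and ASCC3 were added after their values were seen. Nothing in the labels says that replicates were grown separately. The p-values then reflect only the spread among these samples, possibly a technical one.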

Additional observations from a re-analysis of the deposited data

How the results depend on the processing

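Under 17 alternatives the count of called members stayed at 0 except without both end libraries of the first component, where it was 2. The count over all genes, 1 with all libraries, was 0 with upper-quartile factors, 15 with DESeq2, 172 with the component score as a covariate, 702 without both end libraries, and 0 to 1 with each library left out. XBP1 kept its direction throughout. Its adjusted p rose past the threshold with upper-quartile factors (log2 fold change -0.85, adjusted p = 0.0546), and with 1 library left out its log2 fold change lay between -0.88 and -0.80.

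The members' median ranged from 0.14 to 0.23. With 1 library left out, MDM2 ranged from -0.060 to 0.23, ZMAT3 from -0.031 to 0.33, RRM2B from -0.12 to 0.28 and PPM1D from -0.010 to 0.24. The lowest values came without siXBP1 replicate 3, or for PPM1D without siNC replicate 1. Without both end libraries they were -0.17, -0.12, -0.24 and -0.10. CDKN1A (0.03 to 0.23), GADD45A (0.08 to 0.26), PLK2 (0.12 to 0.23), PLK3 (0.12 to 0.29) and SESN1 (0.13 to 0.21) stayed above 0.

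Estimates of other genes changed sign, most of them near 0. PERP, at 0.29 with all libraries, ranged from 0.014 to 0.45 with 1 library left out, lowest without siXBP1 replicate 3. With 1 library left out CDKN2A ranged from -0.20 to 0.053, USP10 from -0.0094 to 0.080, CCND1 from -0.0098 to 0.033, PCNA from -0.085 to 0.047, ULK1 from -0.21 to 0.028, TOP2A from -0.12 to 0.14 and MKI67 from -0.22 to 0.14. With the covariate CDKN2A was 0.011, ULK1 0.0016, TOP2A -0.044 and MKI67 -0.10. Without both end libraries CDKN2A was 0.19, USP10 -0.019, PERP -0.074, PCNA 0.012, ULK1 0.13, TOP2A -0.22 and MKI67 -0.33. MKI67 was -0.0028 with limma-voom. The causes were not tested.

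Replicate numbers were checked as pairs. Deviations of siXBP1 and siNC libraries with the same number correlated at 0.60, -0.36 and 0.43. Replicate 1 of siXBP1 correlated best with its own number, and siXBP1 replicates 2 and 3 did not. The libraries are few and vary mostly along the first component, so these correlations cannot settle whether the replicates were paired. The labels do not say. The fit with a replicate block called 1 gene over all genes and 0 members, with MKI67 at -0.0019. The upper ends of the members' 95% intervals lie at log2 fold changes of 0.40 to 0.61. With counts divided by 2, 0 members and 1 gene over all were called, as with the full counts.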
